A study of Mus musculus with 8 samples.

Results

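Inflammasomes are cytosolic protein assemblies of innate immune cells that turn a danger signal into processed cytokines and lytic cell death. A sensor such as NLRP3 or AIM2 recruits the adaptor ASC, encoded by Pycard, which gathers and activates caspase-1. Active caspase-1 cuts the precursors of the cytokines interleukin-1 beta and interleukin-18 and the pore-forming protein gasdermin D. In the injured brain, microglia and incoming myeloid cells are known carriers of this machinery. The members described here are the sensor genes Nlrp3 and Aim2, the adaptor gene Pycard, the caspase genes Casp1, Casp4 and Casp8, and the cytokine genes Il1a, Il1b and Il18. They were chosen by symbol. Of 9 genes named, 8 were found among the 17644 genes of the table, and Il18 was not analysed here.

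Gene expression was measured by CAGE, a method that sequences a short tag from the cap site of each RNA, in brain tissue of 11-week-old male C57BL/6NCrSlc mice. In every animal a small cavity had been made in the motor cortex by aspiration under anaesthesia, and tissue within a 1.0 mm margin of the cavity was taken. In the 1-week group (n = 4) the brain was removed 1 week after the lesion, and in the no-delay group (n = 4) directly after it. No unlesioned tissue was compared, so both groups share the surgery. Values are CPM, the tags of a gene scaled to a common library total. Because a tag marks a transcript's 5′ end, CPM was not divided by transcript length when genes were set side by side. A library is named by its group and its 6-base tag, and per-library values are listed in the alphabetical order of these tags. Depth, here the sum of the reads recovered from the gene values, ran from 8278855 to 13998941 reads per library. Reads not assigned to a gene are not part of it. At these depths 3 reads, the upper limit that a count of 0 allows, correspond to 0.214 to 0.362 CPM. The second, 3-base tag is the same within each group and differs between the groups, so any difference tied to it and the time after the lesion cannot be told apart. Nothing in the labels says that each sample is a separate animal, and the p-values rest on the spread between samples, which may be technical. Over the 14718 genes with at least 1 CPM in at least 4 libraries, the test was limma on log2(CPM + 1), and a gene was called at a Benjamini-Hochberg adjusted p under 0.05.

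All 8 members were higher at 1 week in every library than in any no-delay library. Under the same criterion 22.7% of all tested genes lay wholly above and 12% wholly below. The adaptor Pycard was the most abundant member in all 8 libraries and had the largest log2 fold change among the 7 members tested. Casp4, which was near the limit of detection without delay, had the largest ratio of means among those 7. The cytokine Il1b remained the least abundant member at 1 week. Of the 8 members, 7 passed the filter on low values, and Il1b did not. Casp4 passed only through the 1-week libraries, and Il1a had a single no-delay library at 1 CPM or more. All 7 were called higher, beside 23.4% of all tested genes called higher and 13.4% called lower (36.8% in either direction). The filter favours members that are high at 1 week, so that the count of 7 is given as a description.

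**Figure D1:**
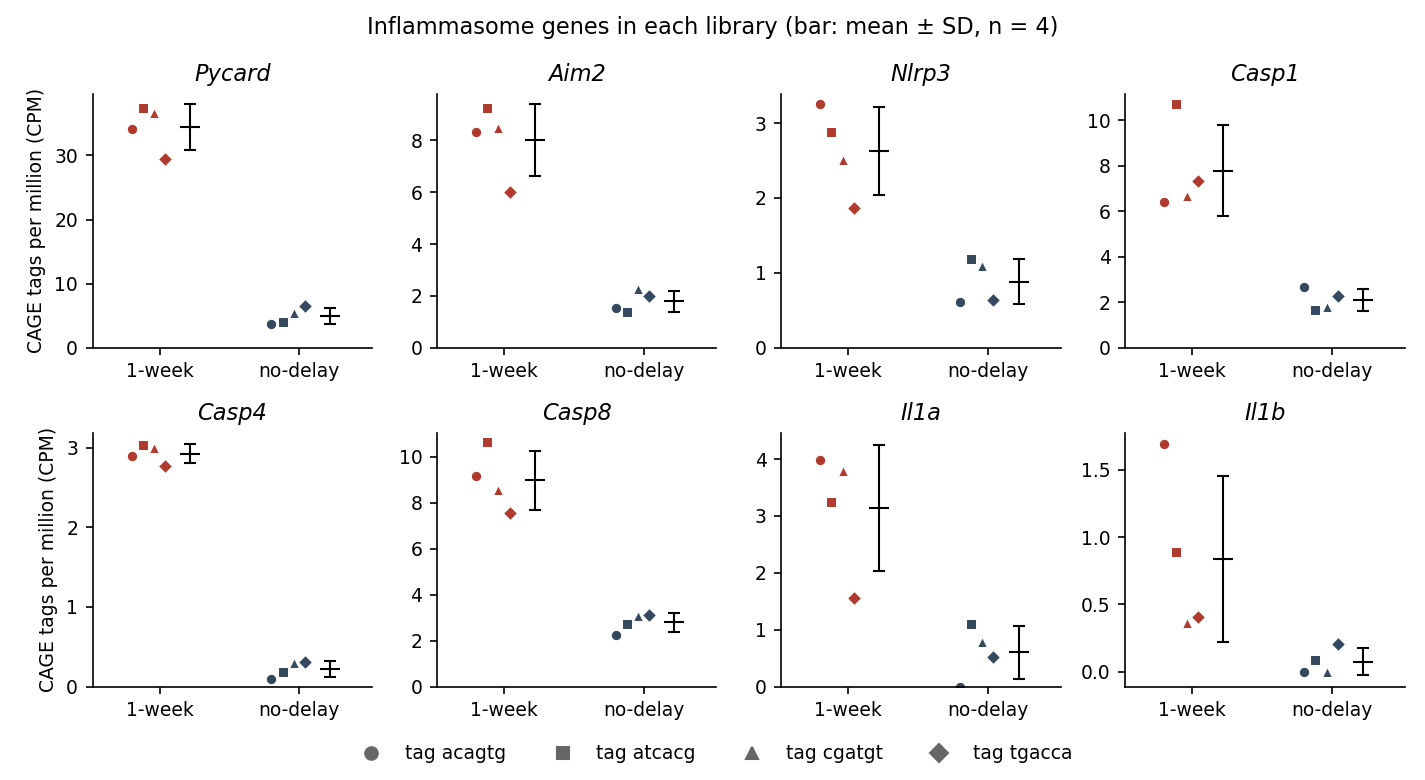
CPM of each member in the 4 libraries of the 1-week group (red) and the 4 of the no-delay group (blue), with symbols for the 6-base tag and the mean ± SD at the right of each group; each panel has its own linear axis. The 1-week points lie above the no-delay points in every panel, from 29.5 to 37.4 CPM against 3.69 to 6.46 CPM for Pycard down to 0.36 to 1.69 CPM against 0 to 0.21 CPM for Il1b.

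CAGE counts capped 5′ ends, so sequence from just before the annotated starts is given as context. Shown here are 120 bases before the start for the 4 members whose window held a match within that stretch, from RefSeq on GRCm38.p6, printed 5′ to 3′ in the direction of the gene, with matches in capitals. That build differs from the one named for the deposited values, and no tag position is implied.
Pycard, chr7:127993868-127993987, minus strand: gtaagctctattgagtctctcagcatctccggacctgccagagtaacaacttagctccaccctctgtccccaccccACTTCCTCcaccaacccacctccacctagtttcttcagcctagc
Aim2, chr1:173420484-173420603, plus strand: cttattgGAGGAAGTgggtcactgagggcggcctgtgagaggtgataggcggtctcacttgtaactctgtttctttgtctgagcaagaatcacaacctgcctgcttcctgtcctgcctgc
Casp4, chr9:5308729-5308848, plus strand: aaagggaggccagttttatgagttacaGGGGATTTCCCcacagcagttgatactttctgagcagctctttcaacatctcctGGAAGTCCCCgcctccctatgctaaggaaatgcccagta
Il1a, chr2:129309973-129310092, minus strand: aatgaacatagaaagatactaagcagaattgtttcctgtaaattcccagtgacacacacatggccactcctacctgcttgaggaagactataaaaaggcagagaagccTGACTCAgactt
All 8 members had at least 1 RefSeq window, and the 250 bases before each start were searched on both strands for 5 motifs. The ETS-type motif GAGGAAGT, which the myeloid factor PU.1 is known to bind, was present at position -113 for Aim2 and, on the reverse strand, at -44 for Pycard, counted from the annotated start. It was present in 2.44% of all 32851 windows. The NF-kB motif was found at -93, -92 and, on the reverse strand, at -39 for Casp4, where the pair at -93 and -92 overlap and share 1 capitalised run. These positions are for the Casp4 start printed above. Counted from the other annotated start of Casp4, the same matches lie at -104, -103 and -50. A further NF-kB match lay at -186 in 1 of the Nlrp3 windows, farther from the start than the 120 bases shown for the other genes, and 7.25% of all windows held one. The AP-1 motif TGANTCA lay at -12 for Il1a and was present in 6.75% of all windows. The interferon-response motif GAAANNGAAA (2.98% of windows) and the STAT motif TTCNNNGAA (7.02% of windows) were not found for any member, and no motif was found for Casp1, Casp8 or Il1b. These are letter matches and carry no measurement of binding.

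Both sensor genes rose. Aim2 encodes a sensor of double-stranded DNA in the cytosol. It had 8.33, 9.24, 8.50 and 6.03 CPM in the 1-week libraries, against 1.54, 1.37, 2.28 and 1.98 CPM in the no-delay libraries. The lowest 1-week library still lay well above the highest no-delay library. Aim2 averaged 8.03 CPM ± 1.39 at 1 week and 1.79 CPM ± 0.414 without delay (SD, n = 4 each). Its log2 fold change was 1.69 ± 0.16 (SE; limma, adjusted p = 5.6e-06). In GENCODE M21 the span of Aim2 overlaps Cadm3, a cell adhesion gene on the opposite strand, and whether the authors' counting used strand is not given in the sources used here. Cadm3 had 273 CPM ± 23.1 at 1 week and 305 CPM ± 19.9 without delay (SD, n = 4 each) and was not called (log2 fold change -0.16, limma adjusted p = 0.111).

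Nlrp3 encodes the sensor that responds to potassium efflux, crystals and extracellular ATP. It had 3.26, 2.88, 2.50 and 1.87 CPM in the 1-week libraries, against 0.61, 1.19, 1.09 and 0.63 CPM in the no-delay libraries. The groups did not overlap, and the distance between the lowest 1-week and the highest no-delay library was smaller than for Aim2. The log2 fold change was 0.95 (95% interval 0.56 to 1.33; limma, adjusted p = 0.00119), the smallest among the 7 members tested. The ratio of means was 2.99, also the smallest among the 7. The log2(CPM + 1) scale understates that ratio, since the pseudocount of 1 exceeds the no-delay mean of 0.88 CPM. The change rested on 124 reads at 1 week and 36 without delay.

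The adaptor Pycard, whose product ASC links sensors to caspase-1, had 34.2, 37.4, 36.6 and 29.5 CPM in the 1-week libraries, against 3.69, 4.02, 5.45 and 6.46 CPM in the no-delay libraries. It averaged 34.4 CPM ± 3.55 at 1 week and 4.91 CPM ± 1.29 without delay (SD, n = 4 each), so the means differed 7.01-fold. The log2 fold change was 2.60 (95% interval 2.28 to 2.93; limma, adjusted p = 1.1e-07), which ranked 69 among all genes tested. The balance between the caspase and its adaptor shifted with it. Casp1 stood at 0.182 to 0.286 CPM per CPM of Pycard in the 1-week libraries and at 0.327 to 0.721 in the no-delay libraries, with no overlap. This ratio was picked after its values were seen and was not tested.

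Among the caspases, Casp1, which cleaves the cytokine precursors, had 6.40, 10.7, 6.64 and 7.33 CPM in the 1-week libraries, against 2.66, 1.65, 1.78 and 2.29 CPM in the no-delay libraries. The 1-week library tagged atcacg stood highest, and the other 1-week libraries were close to each other. Casp1 averaged 7.77 CPM ± 2.00 at 1 week and 2.10 CPM ± 0.467 without delay (SD, n = 4 each). Its log2 fold change was 1.49 ± 0.17 (SE; limma, adjusted p = 3.0e-05).

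Casp4 encodes the mouse caspase-11, the non-canonical inflammasome caspase that binds bacterial lipopolysaccharide. It had 2.90, 3.03, 3.0 and 2.77 CPM in the 1-week libraries, against 0.10, 0.18, 0.30 and 0.31 CPM in the no-delay libraries. The 1-week libraries were close to each other, with an SD of 0.117 CPM. The no-delay group held 9 reads in all and the 1-week group 141, which after correction for depth is a ratio of 13.2 (exact binomial 95% interval 6.74 to 29.4, counting error only). Limma gave 1.69 ± 0.14 (SE) on the log2(CPM + 1) scale (adjusted p = 2.4e-06), which understates that ratio, since the added pseudocount of 1 exceeds every no-delay value. Among the stretches printed above, that of Casp4 was the one with the NF-kB matches. Casp1 and Casp4 lie close together on one chromosome. Casp1 stood at 2.21 to 3.53 CPM per CPM of Casp4 in the 1-week libraries and at 5.93 to 26.6 in the no-delay libraries. This ratio was not tested, and in the no-delay libraries it rests on 1, 2, 3 and 3 reads of Casp4.

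Casp8 encodes the initiator caspase of death receptors, which can also process interleukin-1 beta and restrains necroptosis. It had 9.18, 10.6, 8.57 and 7.57 CPM in the 1-week libraries, against 2.25, 2.74, 3.07 and 3.13 CPM in the no-delay libraries. Every 1-week library exceeded every no-delay library by more than the whole spread of the no-delay group. The averages were 8.99 CPM ± 1.28 at 1 week and 2.80 CPM ± 0.403 without delay (SD, n = 4 each). Its log2 fold change was 1.39 ± 0.14 (SE; limma, adjusted p = 7.8e-06).

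The cytokine genes had few reads, as Nlrp3 and Casp4 did, and Il1b had the fewest of the 8 members. Il1a encodes interleukin-1 alpha, an alarmin that is active without caspase-1 cleavage. It had 3.99, 3.25, 3.79 and 1.55 CPM in the 1-week libraries, against 0, 1.10, 0.79 and 0.52 CPM in the no-delay libraries. The 1-week library tagged tgacca was the lowest of its group, and the no-delay library tagged acagtg held 0 reads. The log2 fold change was 1.38 (95% interval 0.81 to 1.94; limma, adjusted p = 0.00134), with the widest interval among the 7 members tested. The ratio of means was 5.22, which this scale understates, since the pseudocount of 1 exceeds the no-delay mean of 0.60 CPM. By ratio of means Il1a stood above Casp1 (3.71) and Casp8 (3.21), the reverse of their order by log2 fold change. In GENCODE M21 the span of Il1a overlaps Gm14023 on the opposite strand, which had 0.57 to 0.85 CPM at 1 week and 0.10 to 0.51 CPM without delay.

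Il1b encodes interleukin-1 beta, the principal substrate of caspase-1. It had 1.69, 0.89, 0.36 and 0.41 CPM in the 1-week libraries, against 0, 0.09, 0 and 0.21 CPM in the no-delay libraries. These values correspond to 14, 12, 5 and 5 reads at 1 week and to 0, 1, 0 and 2 reads without delay. Corrected for depth, the ratio of these reads was 10.1 (exact binomial 95% interval 3.18 to 51.2, counting error only). An exact 2-sided permutation test of the mean CPM over the 70 arrangements gave p = 0.0286, unadjusted, the smallest p that 4 against 4 allows and the value that each of the 8 members reached. When limma was run with no filter on low values, Il1b had a log2 fold change of 0.72 ± 0.19 (SE; adjusted p = 0.0140), beside 20.5% of all genes called higher in that fit. The Il1b span also overlaps an annotated antisense gene, Il1bos, which was not analysed here.

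At 1 week the members fell into an order by CPM. Pycard stood apart, with its lowest library at 29.5 CPM. Casp8 (7.57 to 10.6 CPM), Aim2 (6.03 to 9.24 CPM) and Casp1 (6.40 to 10.7 CPM) overlapped each other. Il1a (1.55 to 3.99 CPM), Casp4 (2.77 to 3.03 CPM) and Nlrp3 (1.87 to 3.26 CPM) formed a lower, overlapping group. Il1b was the lowest member in every 1-week library, although its highest library (1.69 CPM) exceeded the lowest of Il1a. Without delay Pycard was again first and Casp8, Casp1 and Aim2 followed in each library, with Casp1 ahead of Casp8 in the library tagged acagtg and Aim2 ahead of Casp1 in the library tagged cgatgt.

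**Figure D2:**
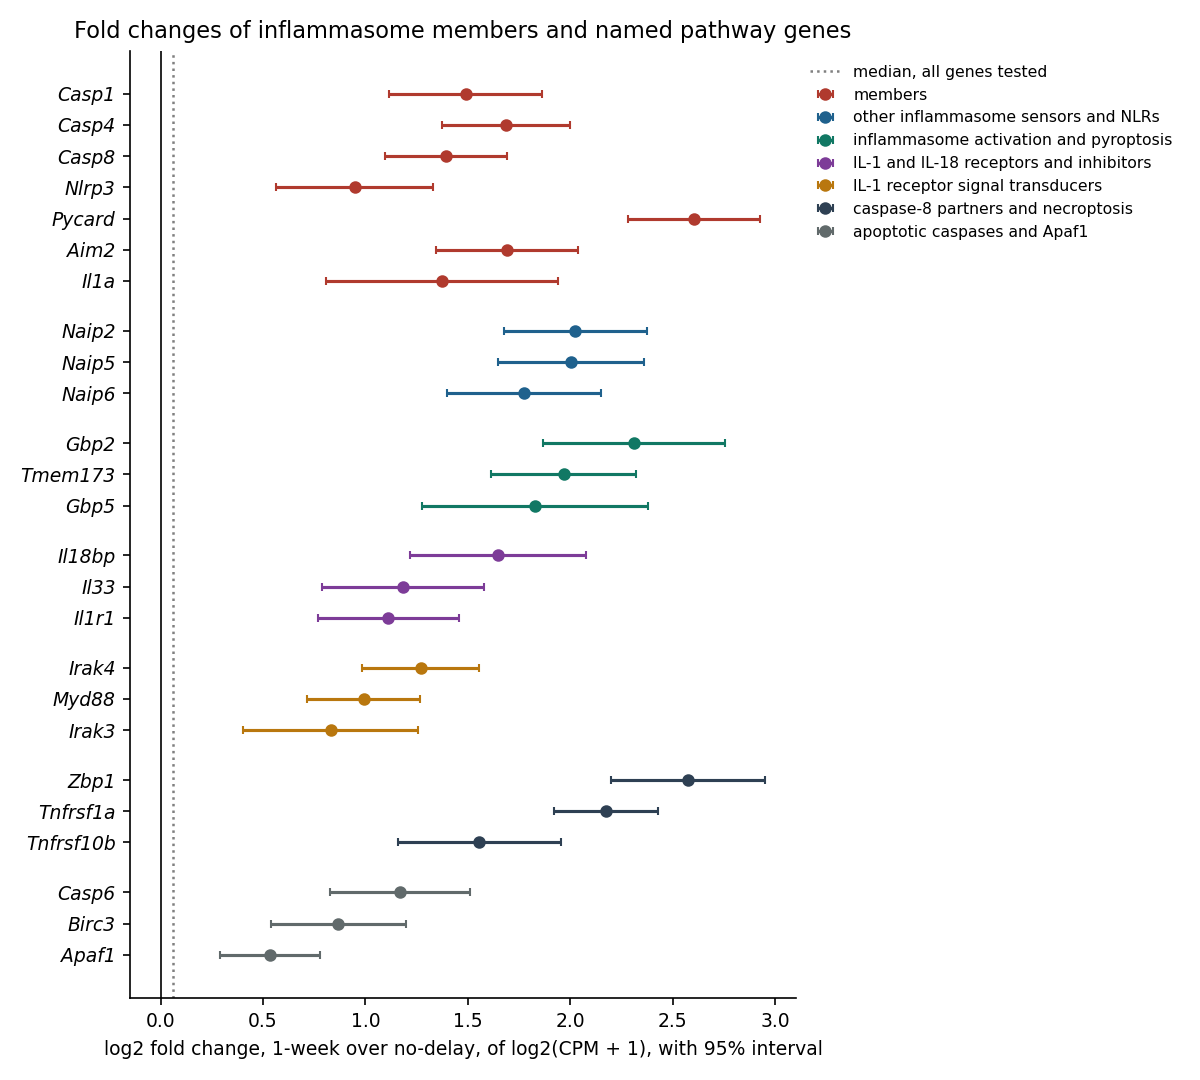
Log2 fold changes (1-week over no-delay, on the log2(CPM + 1) scale) with 95% intervals from limma for the 7 members tested and 18 genes of the surrounding pathway picked by a rule on size, coloured by list; the dotted line is the median of all genes tested, 0.06. All intervals lie above 0. For the 18 genes this follows from the rule, which took only called genes from lists in which none was called lower. Among the members, Pycard at 2.60 and Nlrp3 at 0.95 are the ends of the range.

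In bulk tissue, more cells of a type and more RNA per cell cannot be told apart, so the members were set beside markers of the cell types in the tissue. The 12 homeostatic microglial markers were all called higher, 1 of them passing the filter only through the 1-week libraries, and their summed level was 1559 to 2176 CPM at 1 week and 521 to 529 CPM without delay, a ratio of means of 3.45. The 12 monocyte and macrophage markers summed to 141 to 348 CPM at 1 week and 19.5 to 24.0 CPM without delay, and of the 6 tested 5 were called higher, 1 of which passed the filter only through the 1-week libraries. Lyz2 averaged 162 of the 216 CPM of that sum at 1 week and 5.50 of the 21.7 CPM without delay. Fcgr1 (17.3 to 25.8 CPM at 1 week and 1.65 to 3.17 CPM without delay) and Ms4a7 (6.21 to 16.9 CPM at 1 week and 0.31 to 0.79 CPM without delay) were among those called higher. Itga4 was not called (7.85 to 9.38 CPM at 1 week and 6.58 to 8.51 CPM without delay). The genes of this list too low to test were mixed. Plac8 had 0.81 to 4.95 CPM at 1 week and 0.20 to 0.63 CPM without delay. Ly6c2 had 0.33 to 0.60 CPM at 1 week and 0 to 0.18 CPM without delay. Neither overlapped between the groups. The groups did overlap for Ccr2 (0.08 to 0.67 CPM at 1 week and 0 to 0.20 CPM without delay). They also overlapped for Cd163 (0.52 to 1.71 CPM at 1 week and 0.51 to 0.89 CPM without delay). Clec10a (means 0.35 CPM at 1 week and 0.305 CPM without delay) and Lyve1 (0.275 and 0.203 CPM) overlapped too. Of 7 neutrophil markers in the table, 5 were too low to test and S100a8 was not called (0.96 to 3.62 CPM at 1 week and 0.51 to 10.7 CPM without delay), while Csf3r, which microglia also express, was called higher. The 7 neutrophil markers summed to 27.2 to 37.7 CPM at 1 week and 4.30 to 19.2 CPM without delay. Csf3r averaged 29.3 of the 32.1 CPM of that sum at 1 week and 4.82 of the 10.9 CPM without delay. S100a8 averaged 1.97 CPM at 1 week and 4.77 CPM without delay, so the higher sum at 1 week rests on Csf3r. The 7 T and NK cell markers, all too low to test, summed to 0.96 to 2.56 CPM at 1 week and 0.94 to 2.28 CPM without delay. Cd3g and Nkg7 were at 0 in all no-delay libraries and averaged 0.085 and 0.16 CPM at 1 week. Cd4 went the other way, with a mean of 0.198 CPM at 1 week and 0.85 CPM without delay. Neuronal markers were present throughout, as the tissue label requires, at 6113 to 6417 CPM summed at 1 week and 6640 to 7545 CPM without delay. Of the other marker lists, 10 of 10 astrocyte, 8 of 10 oligodendrocyte and 8 of 10 endothelial genes were called higher, and the 5 red blood cell genes were not called (summed level 348 to 5361 CPM at 1 week and 659 to 1562 CPM without delay). Of 9 neuronal markers, 2 were called lower and 7 were not called. Beside each of these marker counts stand the shares over all tested genes, 23.4% called higher and 13.4% called lower. The part of these cell types in the members' levels was not tested, other than by the ratios to microglial markers that follow.

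Relative to the homeostatic microglial sum, the members fell into those that outran the markers and those not shown to. Pycard stood at 1.92% ± 0.151 of that sum at 1 week and 0.934% ± 0.240 without delay (SD, n = 4 each), a ratio of 2.05, and the groups did not overlap (exact 2-sided permutation p = 0.0286). Casp4 stood at 0.164% ± 0.0169 at 1 week and 0.0424% ± 0.0190 without delay, a ratio of 3.87 (exact 2-sided permutation p = 0.0286, n = 4 each). The no-delay group held 9 reads of Casp4 in all. For the other 6 members the groups overlapped or the test missed 0.05. Casp1 had 0.371% to 0.492% at 1 week and 0.315% to 0.510% without delay (exact permutation p = 0.629). Casp8 had 0.485% to 0.532% at 1 week and 0.432% to 0.592% without delay (exact permutation p = 0.371). Nlrp3 had a ratio of 0.868 (exact permutation p = 0.543), Aim2 of 1.30 (exact permutation p = 0.0857), Il1a of 1.51 (exact permutation p = 0.286) and Il1b of 3.26 (exact permutation p = 0.114). The Il1b ratio was 2.05 without the 1-week library tagged acagtg and 8.09 without the no-delay library tagged tgacca. A p that misses the threshold does not show that these members kept pace with the markers.

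For most members this result depended on which markers were summed. Against the sum of 6 other myeloid genes, Aif1, Tyrobp, C1qa, C1qb, C1qc and Ctss, which was itself 6.66-fold higher at 1 week, Pycard had a ratio of 1.07 (exact permutation p = 0.714) and Casp4 of 2.02 (exact permutation p = 0.0286). Casp1, Casp8 and Nlrp3 were lower relative to that sum at 1 week, with ratios of 0.552, 0.486 and 0.455 and no overlap for any of them (exact 2-sided permutation p = 0.0286 each). Of the 8 members, Casp4 alone stood higher per marker at 1 week with no overlap against both sums. Its no-delay values rest on 1, 2, 3 and 3 reads. Against the sum of the other myeloid genes the gap was narrow. The lowest 1-week library stood at 0.177% and the highest no-delay library at 0.158%. These 16 exact tests are unadjusted, and 0.0286 is the smallest p they can give.

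**Figure D3:**
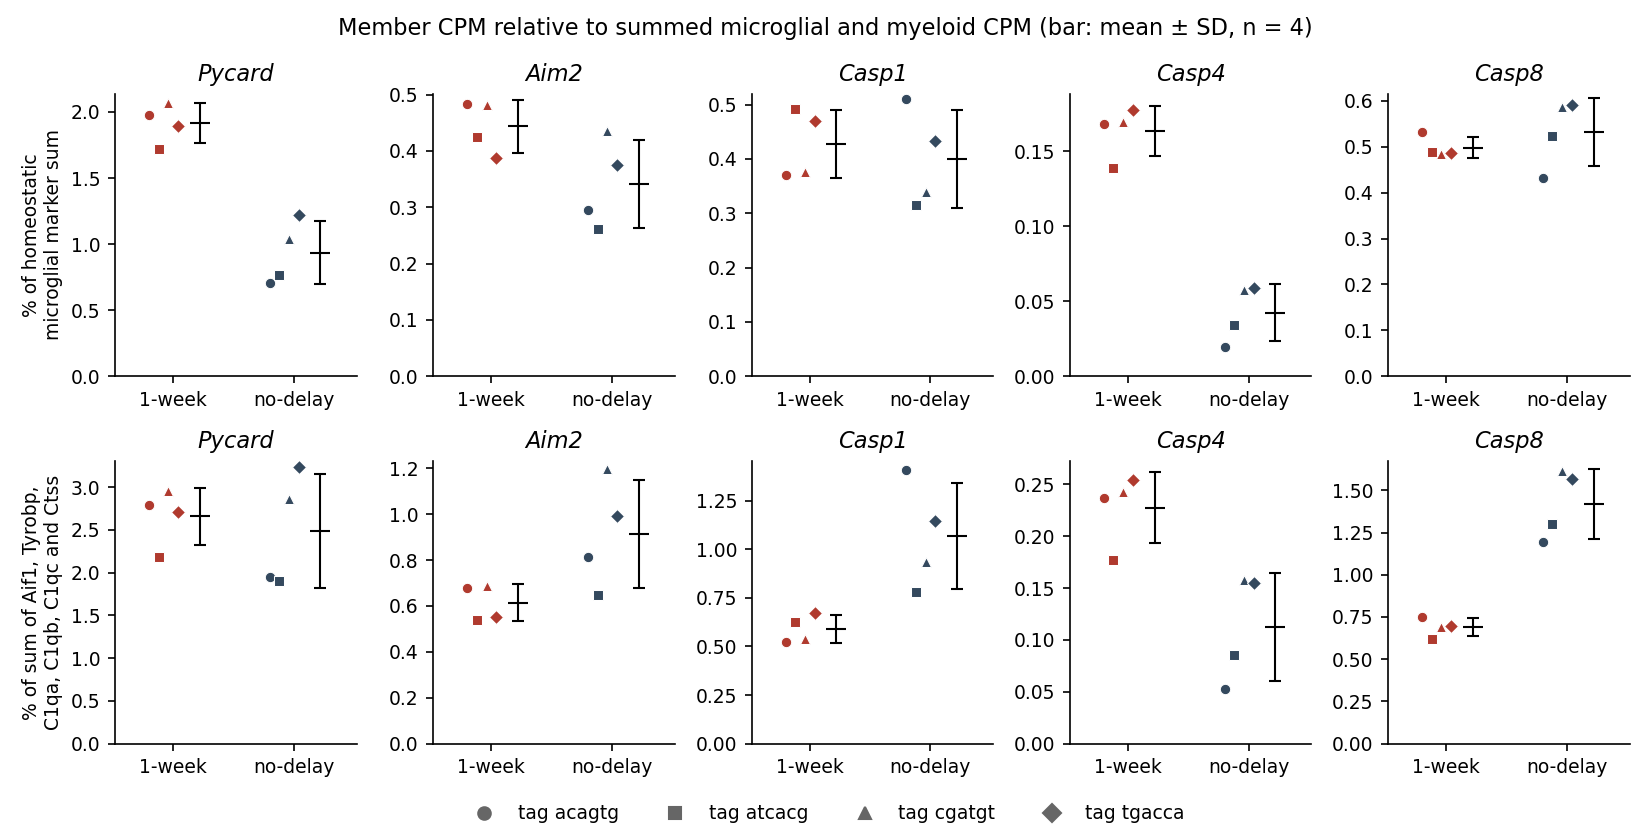
CPM of 5 members as a percentage of the summed CPM of homeostatic microglial markers (top row) and of 6 other myeloid genes (bottom row), in the 4 libraries of the 1-week group (red) and the 4 of the no-delay group (blue), with mean ± SD; axes are linear and start at 0. Casp4 lies higher at 1 week in both rows, while Pycard does so in the top row only, where it averaged 1.92% at 1 week and 0.934% without delay.

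The genes around the members were read from 6 lists of the pathway. Over their 52 tested genes limma called 38 higher and 0 lower, beside 23.4% and 13.4% of all tested genes. Those 2 shares stand beside each list count below as well. Of the 52, 4 passed the filter only through the 1-week libraries. Map3k7, which encodes the kinase TAK1, was the 1 gene lower at an unadjusted p under 0.05, with 24.9 to 37.1 CPM at 1 week and 30.0 to 48.4 CPM without delay (log2 fold change -0.39, adjusted p = 0.0591). Both edgeR and DESeq2 called it lower, beside 36 genes called higher. So did limma after rescaling by TMM or by median of ratios (36 higher each), after quantile normalization (27 higher), and without the 1-week (37 higher) or the no-delay library (36 higher) tagged tgacca. Over all 14718 tested genes edgeR called 2923 higher and 2567 lower, DESeq2 2799 and 2762, and quantile normalization 2464 and 3211. TMM scaling gave 2937 and 2585, and median-of-ratios scaling 2873 and 2720. Of the 9 other sensor and NLR genes in the table, 5 were tested, 4 were called higher and none lower. Their median log2 fold change was 1.77, beside 0.06 over all genes tested. The named ones are the Naip genes, whose products detect bacterial flagellin or secretion system proteins. Naip2 had 6.04 to 9.46 CPM at 1 week and 0.73 to 1.19 CPM without delay (log2 fold change 2.02, SE 0.16, limma adjusted p = 1.4e-06). Naip5 had 4.48 to 6.43 CPM at 1 week and 0.31 to 0.91 CPM without delay, passing the filter only through the 1-week libraries. Naip6 had 3.58 to 5.32 CPM at 1 week and 0.31 to 1.02 CPM without delay. The Naip genes are close copies of each other, so the split of tags among them is uncertain. Nlrx1, a mitochondrial family member, was not called (4.14 to 5.78 CPM at 1 week and 3.75 to 4.30 CPM without delay).

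Of 13 genes of inflammasome activation and pyroptosis, all tested, 9 were called higher, none lower and 4 were not called, with a median log2 fold change of 1.34. One of the 9, Gm12250, passed the filter only through the 1-week libraries. On the log2(CPM + 1) scale the largest changes were in Gbp2 and Gbp5, interferon-induced GTPases that act upstream of caspase-11 and AIM2 on bacteria, and in Tmem173, which encodes the DNA-signalling adaptor STING. Gbp2 had 6.35 to 15.0 CPM at 1 week and 1.19 to 1.68 CPM without delay, and its log2 fold change was 2.31 ± 0.20 (SE; limma, adjusted p = 3.6e-06). Tmem173 had 10.5 to 15.1 CPM at 1 week and 1.83 to 3.56 CPM without delay, and Gbp5 had 4.23 to 10.9 CPM at 1 week and 0.73 to 1.92 CPM without delay. By the ratio of means Gm12250 came first, at 12.6 beside 8.17 for Gbp2, with 1.38 to 3.03 CPM (107 reads) at 1 week and 0.09 to 0.21 CPM (7 reads) without delay. Among genes picked after their values were seen, Gsdmd, the pore former cut by caspase-1 and caspase-11, had 9.53 to 11.8 CPM at 1 week and 2.50 to 3.56 CPM without delay (log2 fold change 1.52, SE 0.13, limma adjusted p = 2.3e-06). Nek7, the kinase that licenses NLRP3, was far more abundant and was not called, at 63.6 to 90.4 CPM at 1 week and 64.7 to 73.5 CPM without delay (limma adjusted p = 0.617).

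Of 5 genes for interleukin-1 and interleukin-18 receptors, inhibitors and relatives in the table, 4 were tested, 3 were called higher and none lower (median log2 fold change 1.15). Il18bp, the soluble decoy that binds interleukin-18, had 2.86 to 5.69 CPM at 1 week and 0.46 to 1.15 CPM without delay (log2 fold change 1.65, SE 0.20, limma adjusted p = 4.0e-05). Il33, a nuclear alarmin of the interleukin-1 family, had 50.9 to 81.9 CPM at 1 week and 22.2 to 42.1 CPM without delay. Il1r1, the signalling receptor for both interleukin-1 cytokines, had 9.54 to 15.6 CPM at 1 week and 4.66 to 6.83 CPM without delay. Its co-receptor gene Il1rap was not called, at 54.8 to 66.3 CPM at 1 week and 58.1 to 67.6 CPM without delay (limma adjusted p = 0.932). Il1rn, which encodes the receptor antagonist and was too low to test, had 17 reads over the 1-week libraries and 0 over the no-delay libraries. The depth-corrected ratio of these reads had an exact binomial 95% lower limit of 3.47 (counting error only).

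Downstream of the receptor, 8 of 12 signal transducer genes were called higher, none lower and 4 were not called, with a median log2 fold change of 0.37. Irak4, the proximal kinase, had 7.13 to 8.87 CPM at 1 week and 2.18 to 3.13 CPM without delay (log2 fold change 1.27, SE 0.13, limma adjusted p = 1.2e-05). Myd88, the adaptor shared with Toll-like receptors, had 11.1 to 15.8 CPM at 1 week and 5.22 to 6.88 CPM without delay. Irak3, an inhibitory family member, had 2.20 to 3.74 CPM at 1 week and 0.72 to 2.08 CPM without delay, and its call was lost with quantile normalization (log2 fold change 0.44, limma adjusted p = 0.0980).

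Around caspase-8, 9 of 12 genes were tested, 8 were called higher and none lower (median log2 fold change 0.85). Of the 9, 2 passed the filter only through the 1-week libraries, namely Zbp1 and Tnfrsf10b. Their fold changes are given as a description. Zbp1, a nucleic acid sensor that can engage caspase-8 and necroptosis, had 4.64 to 7.76 CPM at 1 week and 0.09 to 0.42 CPM without delay (log2 fold change 2.58, SE 0.17, limma adjusted p = 4.1e-07). These values rest on 305 reads at 1 week and 9 without delay. The ratio of means was 27.75, which the log2(CPM + 1) scale understates. Tnfrsf1a, a receptor for tumour necrosis factor, had 25.0 to 35.1 CPM at 1 week and 5.31 to 6.25 CPM without delay. Tnfrsf10b, a death receptor, had 1.93 to 3.69 CPM at 1 week and 0.10 to 0.52 CPM without delay. The necroptosis genes Ripk3 and Mlkl were too low to test, with Ripk3 at 0 to 0.21 CPM at 1 week and 0 CPM without delay and Mlkl at 0.36 to 1.03 CPM at 1 week and 0 to 0.31 CPM without delay.

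Of the 10 genes of apoptotic caspases, Apaf1 and their regulators, 9 were tested, 6 were called higher, none lower and 3 were not called (median log2 fold change 0.47). Casp6, an executioner caspase, had 8.09 to 13.6 CPM at 1 week and 3.44 to 5.03 CPM without delay (log2 fold change 1.17, SE 0.16, limma adjusted p = 1.0e-04). Birc3, an inhibitor of apoptosis protein, had 6.79 to 9.46 CPM at 1 week and 2.87 to 5.0 CPM without delay. Apaf1, the scaffold of the apoptosome, had 10.8 to 11.6 CPM at 1 week and 6.13 to 8.42 CPM without delay, and its call was lost with quantile normalization (log2 fold change 0.24, limma adjusted p = 0.0944). Casp9, the caspase that Apaf1 activates, was not called, at 10.3 to 15.1 CPM at 1 week and 12.0 to 15.6 CPM without delay (limma adjusted p = 0.668). Casp2 was not called either, at 18.2 to 27.1 CPM at 1 week and 21.3 to 23.1 CPM without delay (limma adjusted p = 0.536).

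**Figure D4:**
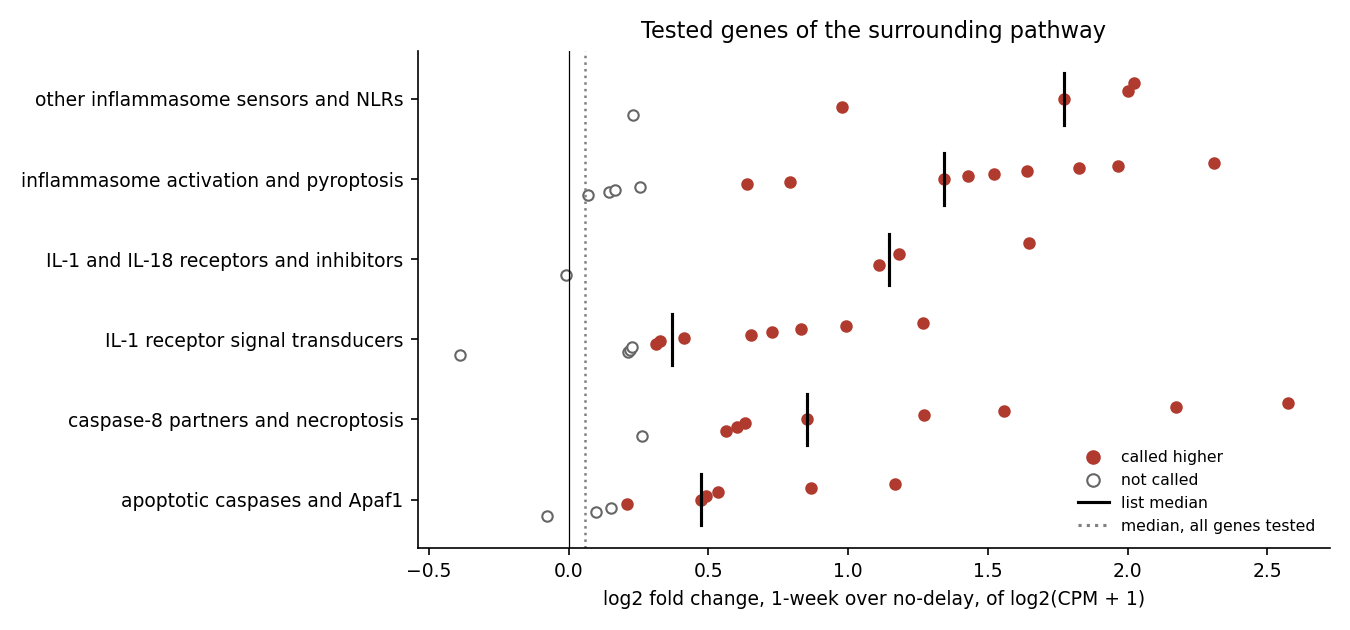
Log2 fold change (1-week over no-delay, on the log2(CPM + 1) scale) of each tested gene in the 6 pathway lists, filled where called higher and open where not called, with the list median as a bar and the median of all genes tested, 0.06, as a dotted line. The list medians run from 0.37 for the signal transducers to 1.77 for the other sensors.

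The genes most like the most abundant members were sought among 12319 tested genes with a mean of at least 5 CPM, by the root mean square difference of log2(CPM + 1) over the 8 libraries after each gene was centred on its own mean. For Pycard these were Psmb8, an immunoproteasome subunit (difference 0.10), with 32.0 to 41.3 CPM at 1 week and 4.61 to 6.98 CPM without delay, and Hvcn1, a proton channel of immune cells (difference 0.15), with 12.1 to 19.0 CPM at 1 week and 1.19 to 1.78 CPM without delay. For Casp8 they were Nfe2l2, a regulator of the antioxidant response (difference 0.10), with 37.6 to 48.9 CPM at 1 week and 12.5 to 15.5 CPM without delay, and Lrrk1, a kinase (difference 0.11), with 9.43 to 13.1 CPM at 1 week and 3.38 to 4.06 CPM without delay. For Casp1 they were the chemerin receptor gene Cmklr1, with 8.33 to 11.8 CPM at 1 week and 2.18 to 3.38 CPM without delay, and the lysosomal mannosidase gene Man2b1, with 81.7 to 121 CPM at 1 week and 31.7 to 37.9 CPM without delay (difference 0.13 for both). The difference between the groups makes up most of each pattern, so closeness here means mainly a fold change of like size.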

How the data were processed

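CAGE libraries from total RNA of 8 brain samples were read single-end for 75 nt, per the labels' protocols. BWA 0.5.9 and the mouse build mm9 are named in the submitters' processing notes. The deposited values are CPM per gene symbol, scaled by the authors to a common total per library. Tag-to-gene assignment is not given in the sources used here. Column names show the group but no replicate number. Reads were recovered as whole multiples of the CPM step of each library (100% of values whole within 0.1 reads). No member or listed gene had the same reads as another gene in every library, among genes with at least 20 reads. Libraries of a group were counted separately, as the labels list them. None agreed within sampling noise with another of its group (mean chi-square per gene 8.72 to 16.6), which does not tell repeat libraries from separate animals.

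Log2(CPM + 1) was tested 2-sided with limma 3.58.1 in R 4.3.3, with a variance trend, over all 14718 genes with at least 1 CPM in at least 4 libraries. EdgeR 4.0.16 and DESeq2 1.42.0 were run on recovered reads as alternatives, and the scripts were tested on simulated reads. Single values were tested by exact permutation over samples. Named pathway genes are up to 3 called genes per list with the largest absolute log2 fold change. For each of the 3 most abundant members the 2 closest genes are named. Members and lists were chosen with earlier results of these data known. No molecular identifiers are recorded, so intervals and limits on reads reflect counting error alone.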

Additional observations from a re-analysis of the deposited data

Results flagged for a closer look

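In the 1-week group, Casp8 as a percentage of the homeostatic microglial marker sum was 0.532% in the library tagged acagtg and 0.485% to 0.489% in the other 1-week libraries, so that this library lay far from the rest relative to the range of its group. It was 1 of 98 groups of 4 examined in this way (1.02%), where chance flags about 1 in 20. Casp8 itself, in CPM, was not flagged.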

How the results depend on the processing

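All 7 calls among the members, and their direction, held in every alternative that gave them a value: other pseudocounts, filters and scalings, no variance trend, edgeR, DESeq2, each library left out, and the 6-base tag as a block, which was added after seeing the data. The largest adjusted p was 0.0225, for Nlrp3, and that of Il1a reached 0.00913. Casp4, Nlrp3 and Il1a have no value with a CPM filter of 5, and Il1b has one in limma only without a filter. The tag block pairs each 1-week library with the no-delay library of the same 6-base tag (3484 genes called higher and 1986 lower, against 3439 and 1971 without it). No paired analysis was possible by replicate number because the columns carry none. Without any one library the exact tests cannot go below 0.0571.

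Quantile normalization gave a median log2 fold change over all genes of -0.04, against 0.06, and took the share of called genes that were higher from 63.6% to 43.4%; it was 53.2% with TMM scaling and 51.4% with median-of-ratios scaling. Quantile normalization called 3211 genes lower, against 1971, and called 5 signal transducers, 4 caspase-8 partners and 3 apoptotic caspase genes higher, against 8, 8 and 6; the cause was not tested. With a CPM filter of 5, 1 other sensor and 3 caspase-8 partners were called higher, since fewer genes were tested. With the other myeloid genes as the marker sum, the ratio of means was 0.552 for Casp1, 0.673 for Aim2 and 0.805 for Il1a, on the other side of 1 from the homeostatic sum. It was 0.486 for Casp8 and 0.455 for Nlrp3, now past the threshold, and 1.07 for Pycard, no longer past it; the cause was not tested. Members with few reads (3 for Il1b and 9 for Casp4 without delay) are limited by depth.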
